A study of Mus musculus with 2 samples.

Results

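Of 143 chemokine, interleukin and receptor genes in the mouse gene table, 35 carried a peak of trimethylated lysine 27 of histone H3 (H3K27me3) in primary chondrocytes, the cartilage cells, of newborn mice. This is 24.5% of them, beside 20.7% of all protein-coding genes. The genes were chosen by symbol alone: every entry that begins with Ccl, Cxcl, Ccr, Cxcr or Il followed by a digit. A gene is called marked here when the deposited annotation joined a peak to it, which required the peak to lie within 5 kb of the gene. The peaks come from 1 ChIP library of H3K27me3 and 1 input library of unprecipitated chromatin, with 17237574 and 17004082 tags after filtering. Both were made from rib cartilage cells of wild-type CD1 pups, which were released with collagenase, cultured overnight in serum and given no treatment. Their chromatin was cut with an enzyme. The number of pups pooled was not given in the sources used here. The libraries were grouped by title, because their antibody tags are reversed relative to the titles, and which of them was precipitated rests on the titles. The list held 19359 peaks, called on the ChIP library against the input library. There were no replicates, so no value below has a spread between samples and no test was made. Intervals in brackets after a share are 95% Wilson intervals. They cover counting error over genes only and treat neighbouring genes as independent.

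Chemokines are small secreted proteins that direct the migration of leukocytes through receptors with several membrane passes, and interleukins are cytokines that leukocytes and other cells exchange through receptor chains that signal mostly by Jak and Stat proteins or by Myd88. Many genes of both groups arose by local duplication and lie side by side in the genome. H3K27me3 is laid down by Polycomb repressive complex 2 and is found at genes kept silent in a given cell type, often as broad domains over gene starts that are rich in CG dinucleotides. The signal is an average over all cells of the preparation, so a strong mark in few cells and a weak mark in all of them cannot be told apart.

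The label of the cells was first set beside the peak list. None of 12 chondrocyte genes had a peak within 5 kb (0%, 0 to 24.2), among them Col2a1, Acan and Sox9, whose nearest peaks lay 159, 163 and 1310 kb away. Of 12 genes that define leukocytes, 5 were marked (41.7%, 19.3 to 68.0). Both intervals contain the 20.7% of all protein-coding genes, so neither count stands apart from the background. The widest peaks at the leukocyte genes were 11.6 kb at Cd3e, a chain of the T cell receptor complex, and 23.6 kb at Pax5, the B cell transcription factor. The peak list measures where the mark was enriched and gives no expression level for any of these genes.

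The 35 marked genes made up 24.5% (18.2 to 32.1) of the 143, beside 4535 (20.7%) of all 21887 protein-coding genes. The background lies inside the interval of the family. A peak reached the gene body of 29 of the 143 genes, or 20.3% (14.5 to 27.6), against 14.2% of all protein-coding genes. A peak covered the 5′ end, meaning the first base of the gene as deposited, at 8 genes, or 5.59% (2.86 to 10.7), against 4.45%. The 8 genes were Cxcl12, Cxcl9, Cxcl5, Ccl4, Ccr6, Ccr9, Il10ra and Il21r, of which Ccr9 and Ccl4 have a 5′ end in the gene table that lies under no peak. With the peaks limited to mean q-values up to 0.05, 27 genes or 18.9% (13.3 to 26.1) stayed marked, against 16.4%. When the gene table supplied the positions in place of the deposited records, 33 genes or 23.1% (16.9 to 30.6) had a peak within 5 kb, against 22.0%. The 29 genes with a peak over the body include Ccr9, Il11ra1 and Ccl1, whose bodies in the gene table lie under no peak. With gene-table bodies, 26 genes or 18.2% (12.7 to 25.3) had a peak over the body, against 15.3%. The background fell just below the interval of the family by the deposited gene bodies, and by the other definitions it lay inside.

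The shares of marked ligands and marked receptors had overlapping intervals. Of 74 ligand genes 19 were marked, or 25.7% (17.1 to 36.7), and of 58 receptor genes 16, or 27.6% (17.8 to 40.2). Chemokine ligands counted 11 marked of 37 (29.7%, 17.5 to 45.8), chemokine receptors 3 of 17 (17.6%, 6.19 to 41.0), interleukins 8 of 37 (21.6%, 11.4 to 37.2) and interleukin receptors 13 of 41 (31.7%, 19.6 to 47.0). All 4 intervals overlap. The other 11 entries, which are antagonists, binding proteins, an enzyme and its copy, pseudogenes and an antisense transcript, held no marked gene.

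The peaks were then placed relative to the genes. Of the marked receptors, 15 of 16 had a peak over the gene body (93.8%, 71.7 to 98.9), and of the marked ligands 14 of 19 (73.7%, 51.2 to 88.2), with intervals that overlap. With gene-table bodies the counts were 13 of 16 receptors, without Ccr9 and Il11ra1, and 13 of 19 ligands, without Ccl1. Receptor genes are longer, with a median of 20.1 kb against 5.22 kb for ligands and 17.2 kb for all protein-coding genes, and the part of gene length in the difference was not tested. Over both classes the body share was 82.9% (67.3 to 91.9), beside 68.6% of all 4535 marked protein-coding genes.

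Genes with a family neighbour within 200 kb are called clustered, and the others lone. Of 84 clustered genes 24 were marked (28.6%, 20 to 39.0), and of 57 lone genes 11 (19.3%, 11.1 to 31.3). These intervals overlap, and 2 entries without a usable chromosomal position fell in neither class. The body share was 83.3% of the marked clustered genes and 81.8% of the marked lone genes. Among ligands, 30.4% of 46 clustered (19.1 to 44.8) and 18.5% of 27 lone genes (8.18 to 36.7) were marked. Among receptors, the shares were 34.5% of 29 clustered (19.9 to 52.7) and 20.7% of 29 lone genes (9.85 to 38.4). The intervals overlap in both classes and all hold the 20.7% of all protein-coding genes, so clustered and lone genes could not be told apart. At gene-table positions the clustered receptors fell to 27.6%, because Ccr9 and Il11ra1 were no longer counted. The order of the receptors turned within 20 kb of a peak (34.5% clustered against 37.9% lone) and with a fold enrichment of 3.5 or more (3.45% against 6.9%).

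**Figure D1:**
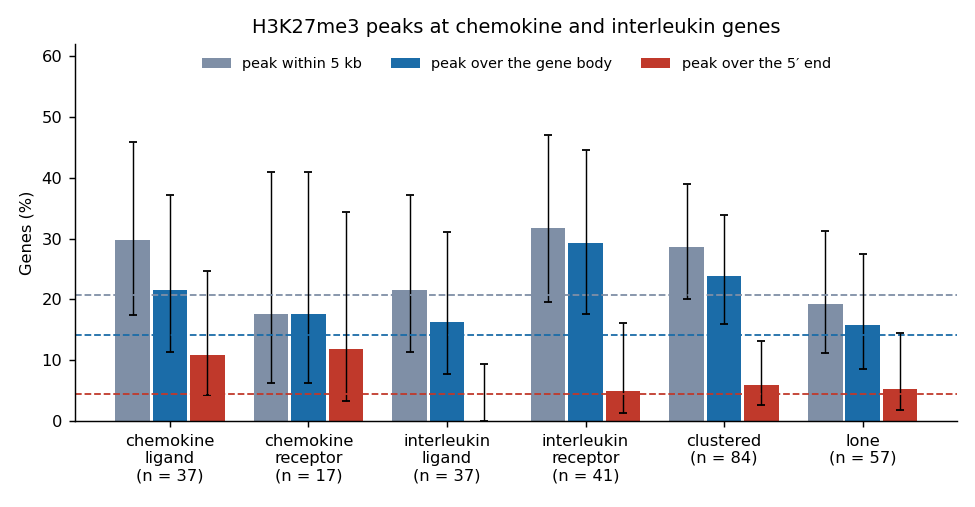
Share of genes (%) with a peak within 5 kb, over the gene body or over the 5′ end, for 4 classes of family genes and for clustered and lone genes. Error bars are 95% Wilson intervals and dashed lines are the shares of all protein-coding genes in the same colours (20.7, 14.2 and 4.45%). The intervals of all classes overlap, and interleukin ligands have no covered 5′ end.

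The 72 peaks joined to the 35 genes were mostly under 2 kb wide. Their median width was 1.17 kb (95% interval of the median 0.993 to 1.41), with quartiles of 0.625 and 1.96 kb and a range from 315 bp to 11.6 kb, beside a median of 1.41 kb for the 10238 peaks joined to any gene with a symbol. The median fold enrichment, which is the ratio of the ChIP pileup to the input background with 1 added to both, was 3.13 against 3.18, and the range was 2.89 to 3.92. The pileup, the mean number of fragments over a peak, ran from 9.86 to 13.42, and 9.86 was also the lowest in the whole list. A mean q-value above 0.05 was found for 33 of the 72 peaks (45.8%), against 35.4% of those 10238 peaks. Many of these peaks stood close to the weakest signal called at this depth.

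Of the 72 peaks, 50 lay over a gene body, 13 upstream only and 9 downstream only, and 8 of the 50 covered a 5′ end. The median width was 1.18 kb over the body, 0.993 kb upstream, 1.17 kb downstream and 2.06 kb over the 5′ end. A single peak was present at 17 of the 35 genes. No peak was joined to 2 genes of the family, although 12 peaks were also joined to a gene outside it.

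**Figure D2:**
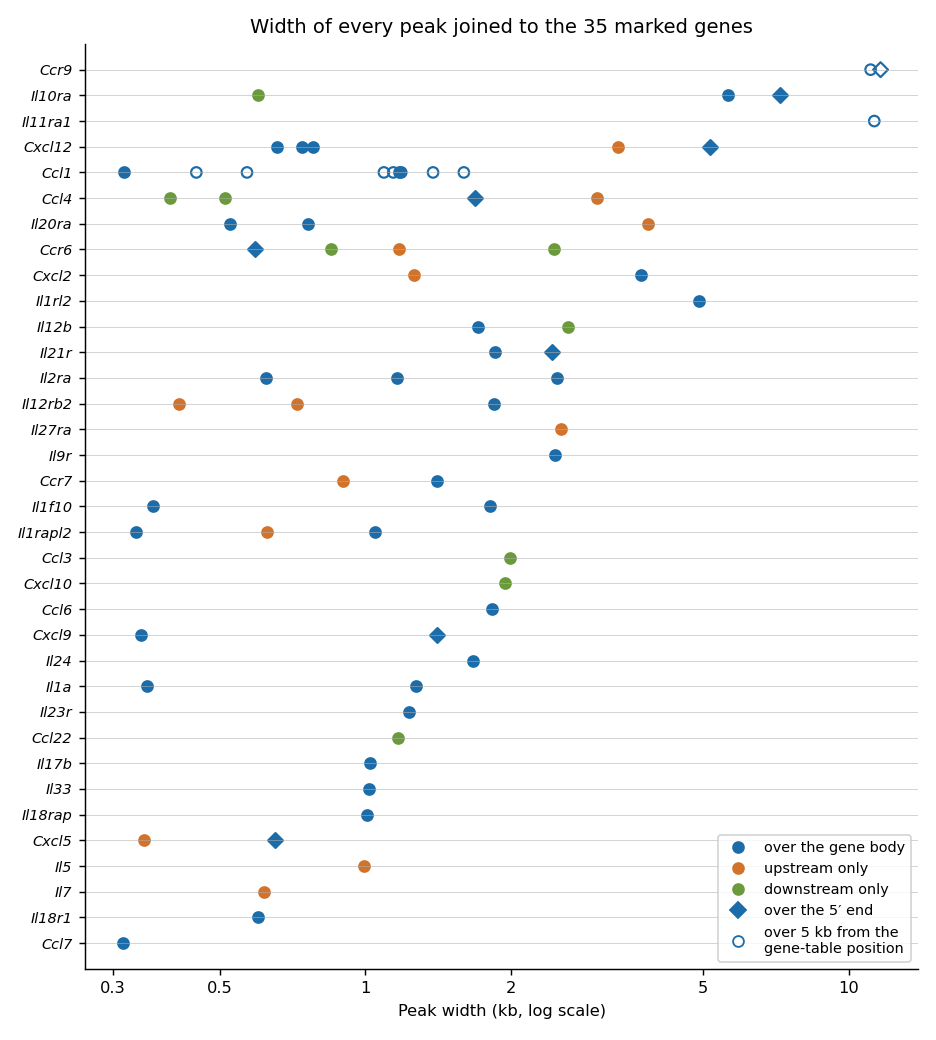
Width (kb, log scale) of each of the 72 peaks, 1 row per marked gene, ordered by the summed width of its peaks. Filled symbols are coloured by place, diamonds cover the deposited 5′ end, and open symbols lie over 5 kb from the gene in the gene table. All 3 peaks of 10 kb or more are open symbols, at Ccr9 and Il11ra1.

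In what follows, the number before q in brackets is the fold enrichment of a peak, q is its mean q-value, coordinates are those of GRCm38, and a gene unmarked at a distance has its nearest peak that far away. Of the 72 peaks, 3 (4.17%) were 10 kb or wider, beside 5.12% of the 10238 peaks joined to any gene with a symbol. All 3 were joined to genes whose deposited record is far longer than the gene. The record of Ccr9, the gut-homing receptor of T cells, spans 105 kb, whereas the gene table gives 16.2 kb at chr9:123767211-123783457. Its peaks of 11.6 kb (fold enrichment 3.43, q 0.0112, chr9:123673370-123684994) and 11.1 kb (3.41, q 0.0125, chr9:123719332-123730418) were also joined to Slc6a20a and Lztfl1, and the nearer lay 36.8 kb from the gene-table Ccr9. The record of Il11ra1, a receptor chain for Il11, spans 69.5 kb against 9.03 kb in the gene table. Its only peak, 11.3 kb wide (3.63, q 0.00476, chr4:41724072-41735353), was also joined to Arid3c and Dctn3 and lay 25.1 kb away. Its neighbours Ccl27a, Ccl21d and Ccl19-ps1 were unmarked at 34.1, 36.7 and 54.4 kb. The record of Ccl1, a ligand of Ccr8, spans 129 kb against 3.15 kb and held 9 peaks of 0.316 to 1.6 kb with a summed width of 8.9 kb. The nearest of them was 1.17 kb wide (chr11:82179873-82181045, 3.28, q 0.0278) and lay 61 bp upstream of the gene-table Ccl1. A second, of 0.316 kb (3.01, q 0.0809), lay 3.53 kb away and the rest 9.72 to 108 kb away. The strongest of the 9 (3.37, q 0.0204) lay 27.0 kb away and the weakest (2.89, q 0.0988) 108 kb away. In all, 10 of the 72 peaks were over 5 kb from the gene-table position, and the widest of the other 62, at 33 genes, was 7.21 kb.

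**Figure D3:**
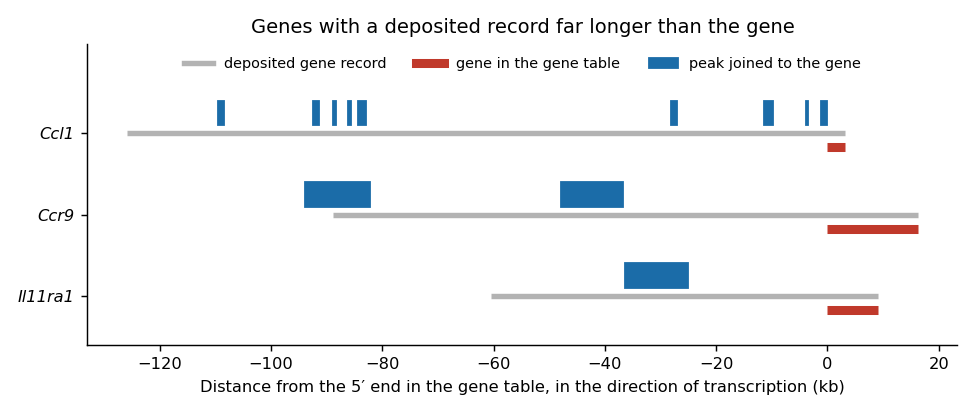
Deposited gene record (grey), gene in the gene table (red) and joined peaks (blue) of Ccl1, Ccr9 and Il11ra1, drawn by distance from the 5′ end that the gene table gives (kb). No peak overlaps the red gene in any of them: the nearest lie 0.061, 36.8 and 25.1 kb away.

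Among the chemokine ligands, Cxcl12 had the largest summed peak width. It encodes the stromal chemokine that retains blood-forming cells in the marrow through the receptor Cxcr4. Its 5 peaks summed to 10.7 kb and covered 47.8% of its 12.8 kb body (chr6:117168536-117181367). The widest, 5.17 kb (chr6:117167330-117172498), lay over the 5′ end with pileup 12.81, fold enrichment 3.48 and q 0.00849. An upstream peak of 3.32 kb (3.2, q 0.0181) ended 2.97 kb before the gene, and 3 narrower peaks lay inside it, of 0.741 kb (3.13, q 0.0432), 0.778 kb (2.97, q 0.0951) and 0.656 kb (3.26, q 0.0319). Cxcr4 had no peak nearer than 130 kb. The 250 bases before the RefSeq start of both genes are shown because they are the marked and unmarked ends of this pair, with each CG dinucleotide in capitals. The first (chr6:117168285-117168534, plus strand) lies wholly under the peak, and the second (chr1:128592300-128592549, minus strand) lies under none.
Cxcl12: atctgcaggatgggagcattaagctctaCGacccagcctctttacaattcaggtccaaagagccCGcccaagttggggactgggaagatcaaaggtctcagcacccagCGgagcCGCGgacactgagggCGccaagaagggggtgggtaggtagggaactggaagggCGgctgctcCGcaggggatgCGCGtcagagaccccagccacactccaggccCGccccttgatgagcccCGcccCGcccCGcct
Cxcr4: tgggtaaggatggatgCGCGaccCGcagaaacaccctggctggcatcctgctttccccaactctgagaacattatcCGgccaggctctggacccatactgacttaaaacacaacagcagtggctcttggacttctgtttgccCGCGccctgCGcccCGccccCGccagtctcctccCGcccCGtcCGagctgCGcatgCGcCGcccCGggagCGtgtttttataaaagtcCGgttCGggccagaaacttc
Both stretches are rich in CG, with 14 at Cxcl12 and 19 at Cxcr4.

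The ligands of Cxcr3 lay next to each other on chromosome 5. Cxcl9, which interferon induces, had a peak of 1.41 kb over its 5′ end (chr5:92327114-92328518, fold enrichment 3.07, q 0.0669) and a peak of 343 bp inside the gene (3.28, q 0.0148). Cxcl10, a second interferon-induced ligand, had only a downstream peak of 1.94 kb (chr5:92344491-92346434, 3.45, q 0.0136) that ended 205 bp from the gene. The wider Cxcl9 peak and the Cxcl10 peak were also joined to Art3, which overlaps this region. Cxcl11, listed as a pseudogene in the gene table, was unmarked with the nearest peak at 13.1 kb, and Cxcr3 lay 117 kb from any peak.

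The neutrophil-attracting ligands of Cxcr2 formed a second locus on the same chromosome. Cxcl5 had a peak of 649 bp over its 5′ end (chr5:90759203-90759851, 3.09, q 0.0526) and an upstream peak of 348 bp (3.58, q 0.00863), 1 of only 5 family peaks that reached a fold enrichment of 3.5. Cxcl2 had a peak of 3.72 kb that covered 90.5% of its 2.01 kb body without its 5′ end (chr5:90904091-90907806, 3.07, q 0.0526), and an upstream peak of 1.26 kb (2.99, q 0.0839). Both peaks of Cxcl2 had a q-value above 0.05. The neighbours Cxcl1, Cxcl3 and Cxcl15 were unmarked at 5.22, 26.2 and 34.7 kb, so Cxcl1 missed the 5 kb limit by little. The receptor Cxcr2 lay 585 kb from a peak.

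The CC chemokine ligands on chromosome 11 formed 2 loci. In the monocyte-attractant locus, Ccl7 had the narrowest peak of the family, 315 bp inside the gene (chr11:82047158-82047472, 3.49, q 0.01), and Ccl1 had the peaks described above. Ccl2, Ccl11, Ccl8 and Ccl12 were unmarked at 9.71, 10.4, 27.9 and 41.3 kb. In the other locus, Ccl6 had a peak of 1.83 kb inside the gene (chr11:83589006-83590832, 3.13, q 0.0491). Ccl3, which activates macrophages, had a downstream peak of 1.99 kb (chr11:83641426-83643418, 3.26, q 0.0322) at 4.43 kb. Ccl4, a close relative of Ccl3, had 4 peaks with a summed width of 5.59 kb. The widest, 3.01 kb (3.04, q 0.0731), lay upstream. A peak of 1.68 kb (chr11:83662569-83664250, 3.02, q 0.0793) began 16 bp before its deposited 5′ end. Of its downstream peaks, that of 512 bp had a q-value above 0.05 (3.0, q 0.0617) and that of 394 bp one below (3.17, q 0.0445). The gene table gives a longer Ccl4 (16.1 kb against 2.1 kb), and its 5′ end there lies under no peak. Ccl9, Ccl16-ps and Ccl5 were unmarked at 10.4, 19.9 and 58.5 kb. On chromosome 8, Ccl22, which attracts Ccr4-bearing T cells, had only a downstream peak of 1.17 kb (3.40, q 0.0136) at 3.64 kb, and its neighbour Ccl17 was unmarked at 34.9 kb.

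Of the chemokine receptors, Ccr6 was the clearest case. It binds Ccl20 and is used by B cells and some helper T cells. A peak of 591 bp covered its 5′ end (chr17:8235755-8236345, pileup 12.2, fold enrichment 3.57, q 0.0086), and an upstream peak of 1.17 kb (2.92, q 0.056) and downstream peaks of 0.85 kb (2.96, q 0.0988) and 2.45 kb (2.96, q 0.0833) flanked the gene. Only the peak over the 5′ end had a q-value under 0.05. Ccr7, which guides T cells and dendritic cells to lymph nodes, had a peak of 1.41 kb inside the gene (chr11:99152058-99153463, 3.07, q 0.0516) and an upstream peak of 0.899 kb (2.90, q 0.0753). On chromosome 9, the receptors Cxcr6, Ccr1, Ccr1l1, Ccr3 and Ccr2 near Ccr9 lay 76.1 to 372 kb from any peak. With Ccr9 at its gene-table position, it too had no peak within 5 kb, and 2 of the 17 chemokine receptors did (11.8%, 3.29 to 34.3).

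The sequences before the starts of Ccr6 and Cxcl9 are shown because the peak covers the whole of each stretch although they are poor in CG, unlike Cxcl12. They are the 250 bases at chr17:8235793-8236042 (plus strand) and chr5:92328080-92328329 (minus strand), again with CG in capitals.
Ccr6: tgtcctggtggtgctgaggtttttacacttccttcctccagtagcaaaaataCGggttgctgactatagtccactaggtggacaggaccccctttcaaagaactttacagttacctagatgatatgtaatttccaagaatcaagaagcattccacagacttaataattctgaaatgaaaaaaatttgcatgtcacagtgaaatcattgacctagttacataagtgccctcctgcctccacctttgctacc
Cxcl9: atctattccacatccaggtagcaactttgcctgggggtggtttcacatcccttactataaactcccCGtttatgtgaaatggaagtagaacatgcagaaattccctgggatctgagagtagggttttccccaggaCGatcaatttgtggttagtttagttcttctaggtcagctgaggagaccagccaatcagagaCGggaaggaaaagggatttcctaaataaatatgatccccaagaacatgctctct
They hold 1 and 3 CG dinucleotides.

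Of the 37 interleukin ligands, 8 were marked (21.6%, 11.4 to 37.2). None had a covered 5′ end, and the upper Wilson limit of that share, 9.41%, lies above the 4.45% of all protein-coding genes, so the class is not set apart by it. Il24, a cytokine of the Il10 family, had the strongest peak of this class, 1.67 kb across its 3′ end and also joined to Fcmr (3.53, q 0.0102), whereas its neighbours Il20, Il19 and Il10 were unmarked at 24.6, 50.2 and 137 kb. Il33, an alarm cytokine of barrier and stromal cells, had a peak of 1.01 kb inside the gene (3.47, q 0.0138). Il12b, the chain shared by the cytokines that bind Il12rb2 and Il23r, had a peak of 1.71 kb over its 3′ end (3.16, q 0.0341) and a downstream peak of 2.63 kb (3.26, q 0.0288). These 3 genes held the strongest signal among the interleukins.

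Il1a, a ligand of Il1r1 in inflammation, had peaks of 1.27 kb and 353 bp inside the gene (q 0.0462 and 0.0419). Il1b, its neighbour and fellow ligand, was unmarked at 9.6 kb. Il17b, of the Il17 family, had a peak of 1.02 kb of which 61 bp met the gene, also joined to Pcyox1l (q 0.0483). Il1f10, a member of the Il1 family, had peaks of 363 bp and 1.81 kb over the gene, both with q-values above 0.05 (0.0632 and 0.0594), and its 5 neighbours Il1f5, Il1rn, Il1f6, Il1f9 and Il1f8 were unmarked at 9.44 to 132 kb. Il5, the eosinophil cytokine, and Il7, which lymphocyte precursors need, had only upstream peaks of 0.993 kb and 0.618 kb at 4.88 kb and 0.877 kb, with q-values of 0.0706 and 0.0926. Il13 and Il4 near Il5 were unmarked at 80.2 and 96.3 kb.

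Among the interleukin receptors, Il10ra, the chain that binds Il10, had the largest summed peak width of any family gene apart from the record of Ccr9. Its 3 peaks summed to 13.4 kb and covered 62.1% of its 15.3 kb body (chr9:45253838-45269149). A peak of 7.21 kb lay over the 5′ end (chr9:45265269-45272483, pileup 12.01, fold enrichment 3.30, q 0.019), a peak of 5.62 kb lay inside (3.38, q 0.0189), and a peak of 0.599 kb lay 0.973 kb downstream (2.96, q 0.0961). Il10ra and Cxcl12 were the only genes with a peak of 5 kb or more at the gene-table position. Its ligand Il10 lay 137 kb from a peak and its partner chain Il10rb 51.3 kb.

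Il21r, the receptor of a T cell cytokine, had a peak of 2.44 kb over its 5′ end (chr7:125601964-125604400, 3.01, q 0.0783) and a stronger peak of 1.85 kb inside the gene (3.23, q 0.027). Its neighbour Il4ra was unmarked at 22.5 kb. Il12rb2 and Il23r, receptor chains of the cytokines that share Il12b, formed the only locus of 2 or more genes in which every gene was marked. Il12rb2 had a peak of 1.85 kb inside the gene (3.16, q 0.0434), a peak of 412 bp that ended 3 bp short of the deposited 5′ end (chr6:67376191-67376602, 2.96, q 0.0988) and an upstream peak of 0.721 kb (3.13, q 0.0381). Il23r had 1 peak of 1.23 kb inside the gene (chr6:67449912-67451140, 3.03, q 0.0751). In the gene table the 5′ end of Il12rb2 lies further out, inside the peak of 412 bp. The 250 bases before both starts are shown with CG in capitals, since the peaks lie over them (chr7:125603179-125603428, plus strand, and chr6:67376189-67376438, minus strand).
Il21r: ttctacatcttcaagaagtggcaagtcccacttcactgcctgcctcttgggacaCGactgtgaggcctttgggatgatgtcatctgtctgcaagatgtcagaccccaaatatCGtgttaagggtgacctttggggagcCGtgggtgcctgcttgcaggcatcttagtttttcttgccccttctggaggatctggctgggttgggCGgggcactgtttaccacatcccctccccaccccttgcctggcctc
Il12rb2: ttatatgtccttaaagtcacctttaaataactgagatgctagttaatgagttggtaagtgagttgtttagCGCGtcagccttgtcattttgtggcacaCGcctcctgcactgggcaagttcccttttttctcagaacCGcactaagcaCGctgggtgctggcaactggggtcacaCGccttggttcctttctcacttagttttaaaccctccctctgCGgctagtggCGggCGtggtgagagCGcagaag
They hold 4 and 10 CG dinucleotides, between the counts of Ccr6 and Cxcl12.

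The Il1 receptor locus on chromosome 1 held 3 marked genes of 6. Il1rl2, which binds Il1f6, had a peak of 4.89 kb just inside the gene (chr1:40326098-40330989, 3.16, q 0.0285), 1.47 kb from its 5′ end. The chains of the Il18 receptor, Il18r1 and Il18rap, had peaks of 0.6 kb (chr1:40495580-40496179, 3.07, q 0.0652) and 1.01 kb (chr1:40546875-40547881, 3.05, q 0.0389) inside the gene. Il1r1, the signalling receptor of Il1a and Il1b, the Il33 receptor Il1rl1 and the decoy receptor Il1r2 were unmarked at 9.9, 30.2 and 201 kb. Il1rapl2, a neural relative of the Il1 receptors on the X chromosome, had the highest fold enrichment and the lowest q-value of the family (3.92, q 0.00196) in a peak of 336 bp deep inside its 1280 kb gene (chrX:138048761-138049096), beside peaks of 1.05 kb (3.23, q 0.0367) and 0.625 kb (3.13, q 0.0523). Of the 6 family genes on the X chromosome it alone was marked (16.7%, 3.01 to 56.4), beside 20.7% of all protein-coding genes.

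Il20ra, a receptor chain for Il24, had a peak of 3.83 kb that ended 0.802 kb before the deposited 5′ end (chr10:19707955-19711786, 3.26, q 0.0223) and peaks of 0.524 and 0.76 kb inside the gene (q 0.0988 and 0.0694). The gene table starts Il20ra further upstream, at position 19711673, inside the wide peak. Il2ra, the high-affinity Il2 receptor chain of activated and regulatory T cells, had peaks of 1.16, 0.623 and 2.5 kb inside the gene, of which only the first had a q-value under 0.05 (3.11, q 0.0371). The neighbours of these genes, Il22ra2 beside Il20ra and Il15ra beside Il2ra, were unmarked at 70 and 23.8 kb. Il9r, the receptor of a mast cell and T cell cytokine, had a peak of 2.46 kb inside the gene (3.14, q 0.0489). Il27ra was the only receptor with a flank peak alone, 2.54 kb wide and 2.58 kb upstream (3.07, q 0.0616), and this peak was also joined to Rln3.

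**Figure D4:**
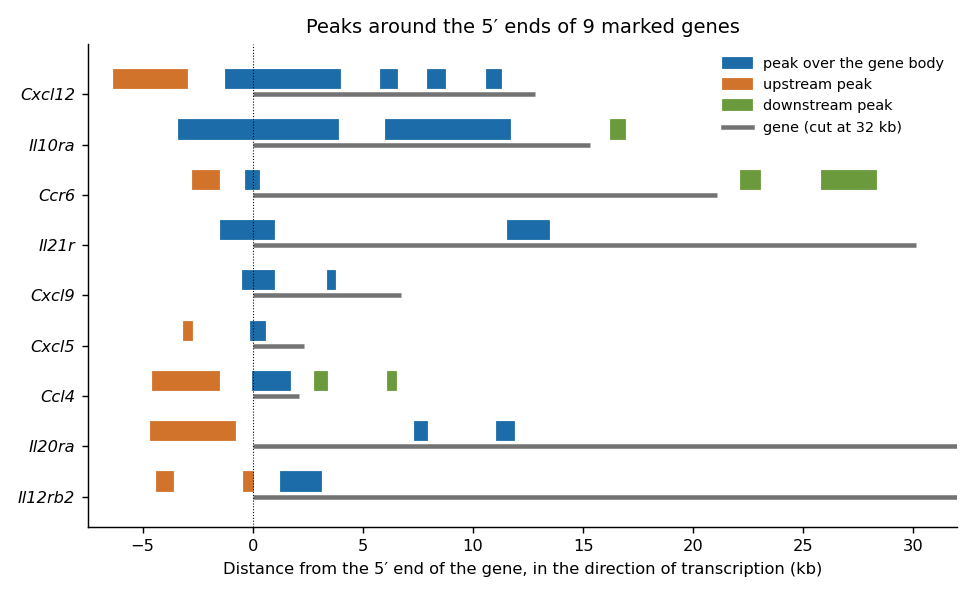
Peaks (bars) and gene bodies (grey lines) of 9 marked genes by distance from the deposited 5′ end (kb), in the direction of transcription. The peaks of Cxcl12 (5.17 kb) and Il10ra (7.21 kb) extend to both sides of the 5′ end, that of Ccr6 is 0.591 kb wide, and those nearest to Il20ra and Il12rb2 end 0.802 and 0.003 kb before it.

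Of the marked genes, 6 had a peak in the flank only: Cxcl10, Ccl22 and Ccl3 downstream, and Il7, Il27ra and Il5 upstream. By gene-table bodies, Ccr9, Il11ra1 and Ccl1 also had no peak over the gene, which left 26 of 35 (74.3%, 57.9 to 85.8). The members just inside the 5 kb limit were Il5 at 4.88 kb, Ccl3 at 4.43 kb and Ccl22 at 3.64 kb. Just outside it were Il11 at 5.02 kb, the antisense transcript Il1bos at 5.03 kb, Il17a at 5.19 kb and Cxcl1 at 5.22 kb.

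Marked and unmarked genes were mixed within loci. The gene table placed the family in 25 loci of 2 or more genes and 57 single genes. Of the 25 loci, 16 held a marked gene, 6 held 2 or more and 1 was marked throughout. Counted by locus, 27 of 82 (32.9%, 23.7 to 43.7) held a marked gene. A locus of several genes has more chances to hold a marked one, so this share cannot be read against the share per gene.

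The 106 unmarked genes with a chromosomal position had their nearest peak at 5.02 to 5160 kb (median 69.4 kb), beside a median of 116 kb for all 17281 unmarked protein-coding genes. Of them, 24 lay within 20 kb of a peak and 44 (41.5%) over 100 kb away, against 52.6% of all unmarked protein-coding genes. Genes near the limit included Ccr8, the receptor of Ccl1, at 5.61 kb, and Il17ra, the common receptor chain for Il17 cytokines, at 7.45 kb. Genes far from any peak included Il6st, the shared signal chain of the Il6 family, at 470 kb, whereas Il6 and Il6ra lay at 17.8 and 33.7 kb. Unmarked means that no peak was called at this depth, and signal below the calling threshold was not measured. Near-identical copies such as Ccl21a, Ccl21b and Ccl21d, Ccl27a and Ccl27b, and Il11ra2 beside Il11ra1 may share reads, which was not tested. How reads with several matches were treated was not given in the sources used here. Ccl21c and Ccl19-ps3 had no usable chromosomal position and no distance.

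**Figure D5:**
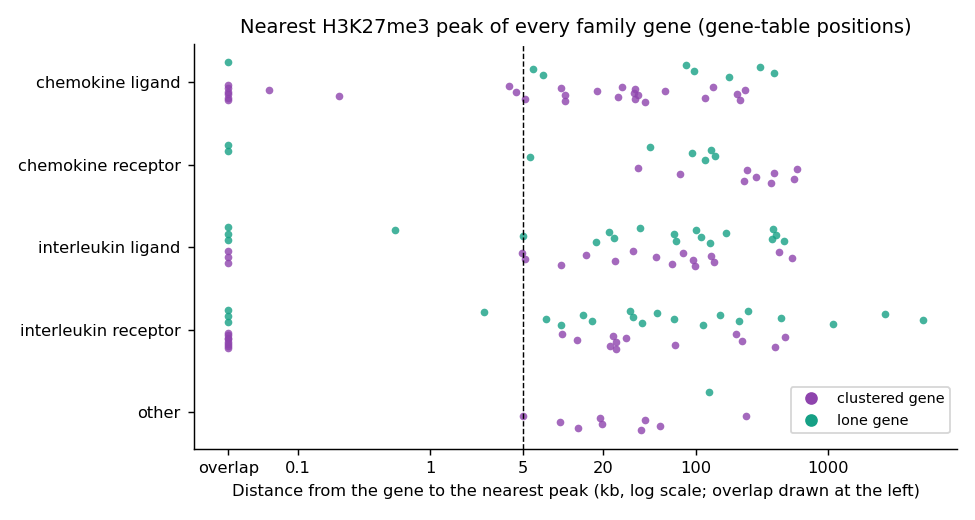
Distance (kb, log scale) from each family gene to its nearest peak at gene-table positions, by class, with clustered genes in purple and lone genes in green. The dashed line is the 5 kb limit, overlapping genes are drawn at the left edge, and unmarked genes run from 5.02 to 5160 kb with a median of 69.4 kb.

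Ligands and their receptors were compared in 37 textbook pairs, which were written down around the marked genes after their values had been seen. Both sides were marked in 3 pairs: Il12b with Il12rb2, Il12b with Il23r, and Il24 with Il20ra. In 19 pairs the ligand alone was marked, as in Cxcl12 with Cxcr4 and Il33 with Il1rl1. In 15 the receptor alone was marked, as in Ccr6 without Ccl20 (393 kb), Il2ra without Il2 (530 kb) and Il21r without Il21 (424 kb). Other unmarked receptors of marked ligands were Il12rb1 at 9.6 kb, Il5ra at 14.3 kb, Il22ra1 at 32.1 kb, Il17rb at 39.5 kb, Ccr4 at 45.6 kb, Il20rb at 68.3 kb and Il7r at 439 kb. Other unmarked ligands of marked receptors were Il11 at 5.02 kb, Il9 at 14.9 kb, Il27 at 38.3 kb, Il1f6 at 66.2 kb, Il12a at 71.4 kb, Ccl25 at 96.7 kb, Il18 at 101 kb, Ccl21a at 117 kb, Ccl19 at 134 kb and Il23a at 462 kb. Because the list was built from marked genes, it held no pair with neither side marked. By gene-table positions Ccr9 (36.8 kb) and Il11ra1 (25.1 kb) were not marked either, and neither side of Ccl25 with Ccr9 or of Il11 with Il11ra1 was then within 5 kb of a peak.

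The RefSeq promoter table of GRCm38.p6 held a window of 250 bases before and 50 after the start for 105 protein-coding family genes, 26 of them marked, and for 17492 protein-coding genes in all. It held none for Il10ra, Cxcl5 and Ccl4, whose deposited 5′ ends lie under a peak, and these genes are absent from the counts that follow. Family windows were poor in CG, with a median of 4 CG dinucleotides against 13, and 24.8% had 10 or more against 57.2%. The start that this promoter table uses lay under a peak at 4 of the 105 family genes (3.81%), which are Cxcl12, Il21r, Cxcl9 and Ccr6 with 20, 7, 4 and 2 CG per window, and at 4.36% of all protein-coding genes. For Il12rb2 and Il20ra this start differs from the 5′ end in the gene table, and it lay 0.003 and 0.801 kb outside the peak. Among all protein-coding genes this share was 2.59% for windows of 0 to 4 CG, 6.37% for 5 to 9, 6.79% for 10 to 19 and 3.60% for 20 or more. The letters TATAAA on the gene strand were present in 30.2% of family ligand windows and 4.26% of family receptor windows, beside 8.99% of all. These are matches of letters and not measured sites.

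Other genes of these pathways were counted from lists. Of 11 remaining chemokine genes, 3 were marked: Cx3cl1 and its receptor Cx3cr1, which lies 17.9 kb from a peak by the gene table, and Ccrl2, which had an upstream peak only. Of 21 interleukin-like cytokines and receptors, 7 were marked, with the widest peak, 5.17 kb over the 5′ end, at Epor, the erythropoietin receptor, and a peak of 1.13 kb over the 5′ end of Tslp, an epithelial cytokine. Of 27 signal transducers, 3 were marked: Jak3, the kinase of lymphocyte interleukin receptors, with a peak of 13.6 kb (highest fold enrichment 3.91), Stat4, which acts below Il12rb2, with at most 0.88 kb, and Traf6 upstream only with 4.62 kb. The shares were 27.3% (9.75 to 56.6), 33.3% (17.2 to 54.6) and 11.1% (3.85 to 28.1), and each interval contains the background of 20.7%. All other signal transducers of the list were unmarked, with nearest peaks from 11.7 kb at Irak3 to 2090 kb at Nfkb1.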

How the data were processed

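H3K27me3 ChIP DNA and input DNA of wild-type newborn chondrocytes were sequenced as 1 library each. CASAVA 1.8.4, Bowtie2, MACS2 and build mm10 are named in the submitters' processing notes. Per the file headers, trimmed reads without duplicates were given to MACS 2.1.0.20140616 in broad mode with a q-value cutoff of 0.05, a fragment length of 294 bp and the larger library scaled to the smaller (17237574 ChIP and 17004082 input tags). The authors deposited, per peak, the pileup as a coverage signal, the fold enrichment as a ratio over the input background, and −log10 p-values and q-values as means over the peak, and means above the cutoff occur. The authors also deposited a table joining peaks to gene records within 5 kb, with 22857 lines, by a tool not given in the sources used here.

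Of 4987 deposited symbols, 4927 were found in the RefSeq annotation (GRCm38.p6), 148 of them by a synonym. Genes were placed as marked or unmarked, ligand or receptor, and clustered (a family gene within 200 kb) or lone. A peak over the body shares 1 bp or more with the deposited record. Every marked gene is named. The rule for fuller values (position, width, fold enrichment, pileup, q-value) took in genes with a covered 5′ end, the 5 with the largest summed width, the 3 with the highest fold enrichment, loci with 2 or more marked genes and marked chemokine receptors. Further peaks of a gene are given without position, most peaks in the Ccl1 record as a range, and the pileup mostly as a range over all members. Members and lists were chosen with earlier results of these data known. No test fits 1 library per group, so shares have 95% Wilson intervals, checked on simulated data, and percentages were computed with Python 3.11.15, pandas 2.3.3, numpy 2.4.6 and scipy 1.17.1. Alternatives were stricter peaks, other distances, gene-table positions, other cluster distances and a larger overlap. Sequences came from the RefSeq promoter table, without the 50 bases after the start. A few genes are not reported here by name. No column of other samples was present.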

Additional observations from a re-analysis of the deposited data

How the results depend on the processing

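Of 46 values recomputed under an alternative, for 8 results, 32 moved by less than their 95% interval and 14 by more. With peaks of a fold enrichment of at least 3.5, the share of marked genes fell to 3.5% of the family, 2.7% of ligands, 5.17% of receptors, 3.57% of clustered and 3.51% of lone genes, the median width to 0.591 kb and the median fold enrichment rose to 3.58, by construction of the filter, since 5 peaks at 5 genes were left (Ccr6, Cxcl5, Il11ra1, Il1rapl2 and Il24). Within 20 kb of the gene-table position, the shares were 39.9% of the family, 41.9% of ligands, 44.0% of clustered and 35.1% of lone genes, as a longer reach must add genes. For the fold filter and the 20 kb reach, no share of all protein-coding genes was taken, so these values have no background beside them. Counting neighbours as 1 locus gave 32.9%. Limited to mean q-values up to 0.05, the median fold enrichment was 3.26. Requiring 500 bp of overlap lowered the body share to 65.7%. The clustered share over all family genes stayed above the lone share under every alternative run, at 26.8% against 22.9% with a cluster distance of 50 kb and 3.57% against 3.51% with the fold filter.

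Restriction to protein-coding genes (25.5%), to peaks over gene-table bodies (18.2%) and to peaks within 5 kb of the gene-table position (median width 1.17 kb, median fold enrichment 3.12) were chosen after seeing the data. Receptors were above ligands as reported and below them at gene-table positions (24.1% against 25.7%, with Ccr9 and Il11ra1 not counted), within 20 kb (36.2% against 41.9%) and by locus (32.5% against 33.3%). No paired analysis was possible because there was only 1 library of each kind. The single pair of libraries gives no measure of how far a peak, its width or its place would vary between preparations.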

Other observations

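Gene length was set beside the marked share. Among all protein-coding genes the marked share was 14.5% up to 5 kb of length, 20.2% from 5 to 20 kb, 19.6% from 20 to 50 kb and 29.0% above 50 kb. Chemokine, interleukin and receptor genes of the same lengths were marked at 21.4% of 42 (11.7 to 35.9), 25% of 56 (15.5 to 37.7), 33.3% of 24 (18 to 53.3) and 26.7% of 15 (10.9 to 52.0). The family share was above the background in the first 3 classes and below it in the last, and each of the 4 intervals contains the background. The marked family genes had a median length of 12.8 kb and the unmarked ones 7.16 kb.

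The summed width of peaks per marked gene had a median of 2.17 kb in the family and of 3.75 kb over all marked protein-coding genes, while the share of marked genes with a single peak was 48.6% and 48.2%. Marked receptors had a median summed width of 3.63 kb and marked ligands of 1.75 kb, while the median width per peak was 1.2 and 1.16 kb. The receptor sums include 22.7 kb for Ccr9 and 11.3 kb for Il11ra1, whose peaks lay over 5 kb from the gene-table position. Of the 35 marked genes, 27 had at least 1 peak that was joined to no other symbol.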
